A study of Mus musculus with 9 samples.

Results

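The 8 genes described here encode the transcription factors NRF1 (Nfe2l1) and NRF2 (Nfe2l2), the NRF2 repressor KEAP1 (Keap1) with its ligase scaffold CUL3 (Cul3), the repressor BACH1 (Bach1), and the small MAF partners MAFF, MAFG and MAFK (Maff, Mafg, Mafk). They were chosen by symbol from the 54838 genes of the count files, and all 8 were found. RNA sequencing covered 9 mouse libraries. B16F10, a melanoma line of the C57BL/6 strain, stood for 5 h in culture medium without HOCl (3 libraries) or with 600 µM HOCl (3 libraries). CD8+ T cells were isolated with a kit from spleens of adult C57BL/6 mice and kept without HOCl (2 libraries) or with the same dose for the same time (1 library). No genotype change or further agent is named for any group. B16F10 is 1 established line, how many mice gave the T cells is not given in the sources used here, and nothing says that the libraries came from separate cultures or mice. The p-values thus reflect no more than the variation among the libraries at hand, which could be technical.

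NRF2 and NRF1 belong to the cap'n'collar family of basic leucine zipper factors, which bind DNA as pairs with a small MAF protein. In unstressed cells KEAP1 holds NRF2 and passes it to a CUL3 ubiquitin ligase, so that the protein is destroyed soon after it is made. Oxidants such as HOCl, the acid that myeloperoxidase of neutrophils makes, modify cysteines of KEAP1, NRF2 escapes, and genes with an antioxidant response element are switched on. BACH1 also pairs with small MAFs, occupies many of the same elements as a repressor, and is released by heme. NRF1 sits in the membrane of the endoplasmic reticulum and is known for raising proteasome genes when proteasomes fail. Much of this control acts on protein, which RNA counts do not measure.

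Totals ran from 45895352 to 61347337 gene counts in the 6 B16F10 libraries and were 49934172 and 52087754 in untreated T cells. Levels are given in CPM (counts-per-million of the gene counts in a library). Summed melanocyte markers (7 genes) stood at 24046 to 25084 CPM in B16F10, and summed T cell markers (8 genes) at 2610 and 2700 CPM in untreated T cells. The library labelled T cell HOCl stood apart. It held 12847418 counts, a count for 44225 genes against 22855 to 25907 in the other libraries, and 37.4% of its counts on mitochondrial transcripts against 1.55% and 2.11% in untreated T cells. Its melanocyte markers summed to 6712 CPM, against 101 and 25.6 CPM in untreated T cells, and its T cell markers to 526 CPM. That library was not compared by any test, though it is 1 of the 9 in the alternative fit of all libraries. In bulk RNA, fewer cells of a type and less RNA per cell cannot be told apart.

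In B16F10 cells given HOCl, transcripts of 6 of the 8 regulators rose and none fell past the threshold. The risers were both activators (Nfe2l1 and Nfe2l2), both repressors (Keap1 and Bach1) and the small MAF genes Mafg and Mafk, by 1.15-fold to 1.38-fold. Cul3 and Maff did not pass. The background was high: 28.3% of the 16082 genes tested passed an adjusted p of 0.05 in either direction, 14.7% of them upward (edgeR quasi-likelihood F test, p-values adjusted by Benjamini-Hochberg). The median log2 fold change of the 8 regulators was 0.26, against -0.01 over all genes tested. All 8 passed the filter on low counts, with at least 247 counts in every B16F10 library. Each of the 6 calls ended when the spread was estimated over all 9 libraries in 1 fit (edgeR adjusted p 0.288 to 0.781), where 11 genes rose in all, and none of the 8 passed a test against a 1.5-fold change. A chi-square per degree of freedom, which grows as a pair of libraries differs more, was 393 for the untreated T cell pair. Pairs within a B16F10 group had 3.73 to 23.2. Those with untreated replicate 1 had 23.2 and 21.2, and no other B16F10 pair was above 7.01. The part of the T cell pair's difference in the 9-library fit was not tested. In the authors' deposited table the same 6 genes had an adjusted p under 0.05, with log2 fold changes from 0.20 for Mafk to 0.45 for Mafg.

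**Figure D1:**
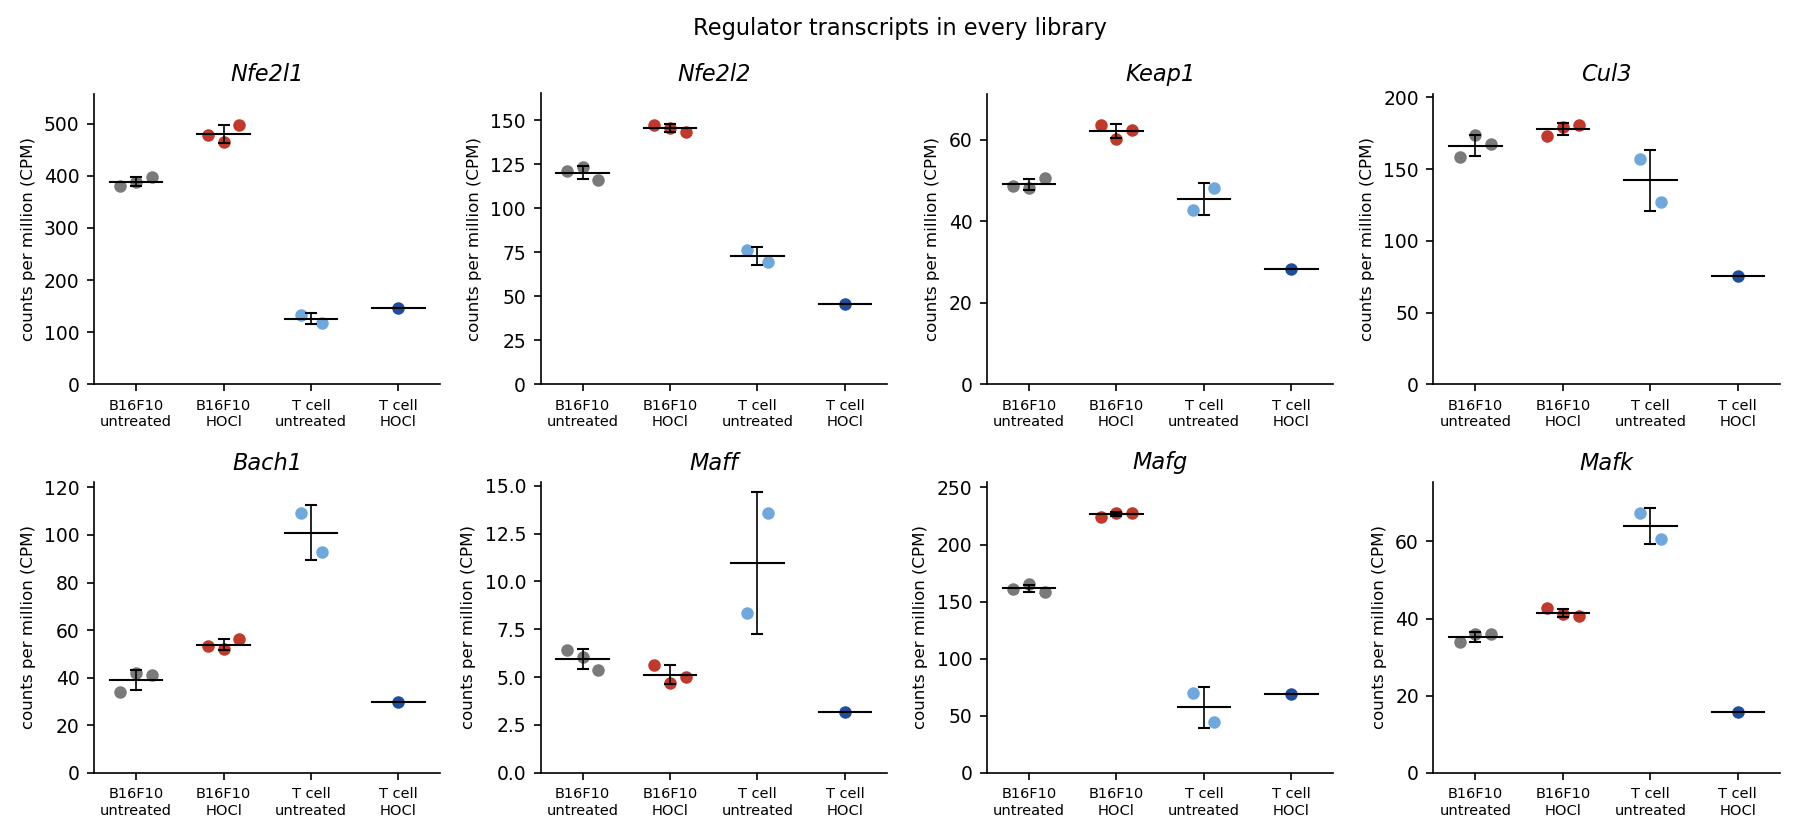
CPM of each regulator in every library (y axes start at 0 and differ between panels); points are libraries, bars the mean and, with 2 or 3 libraries, its SD. The B16F10 HOCl points lie above all untreated B16F10 points for Nfe2l1, Nfe2l2, Keap1, Bach1, Mafg and Mafk, and overlap them for Cul3 and Maff.

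Nfe2l2 (ENSMUSG00000015839, protein coding, chromosome 2, 75675513 to 75704641, minus strand, GRCm38) stood at 121, 123 and 116 CPM in the untreated B16F10 libraries and at 147, 146 and 143 CPM in the HOCl libraries. The lowest HOCl library was above the highest untreated one. The rise was 1.19-fold, a log2 fold change of 0.25 ± 0.05 (SE, n = 3 per group, edgeR adjusted p = 0.00200). Its paralogue Nfe2l1 (ENSMUSG00000038615, chromosome 11, 96817414 to 96829968, minus strand) had the highest counts of the 8, at 380, 387 and 398 CPM without and 478, 465 and 498 CPM with HOCl. Those ranges did not overlap either. Nfe2l1 rose 1.21-fold, with a log2 fold change of 0.28 ± 0.05 and an edgeR adjusted p of 0.000850.

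Keap1 (ENSMUSG00000003308, chromosome 9, 21229730 to 21239361, minus strand), which encodes the oxidant sensor that keeps NRF2 low, was at 48.5, 48.1 and 50.6 CPM in untreated cells and at 63.7, 60.3 and 62.2 CPM with HOCl. The groups were separate, and Keap1 rose 1.24-fold (log2 fold change 0.31 ± 0.05, edgeR adjusted p = 0.00111). An antisense gene, Gm16754, shares 10.9% of its exon bases and had at most 70 counts in any library. Cul3 (ENSMUSG00000004364, chromosome 1, 80264923 to 80340480, minus strand), the scaffold of the ligase, had 158, 174 and 167 CPM untreated and 173, 180 and 181 CPM with HOCl. HOCl replicate 1 lay within the untreated range, and the log2 fold change of 0.07 had a 95% interval of -0.04 to 0.18 (edgeR adjusted p = 0.316).

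Bach1 (ENSMUSG00000025612, chromosome 16, 87698945 to 87733346, plus strand), whose product shuts the elements that NRF2 opens, was at 34.1, 41.9 and 41.0 CPM untreated and at 53.4, 52.0 and 56.4 CPM with HOCl. All HOCl libraries were above all untreated ones, and untreated replicate 1 was the lowest. Bach1 rose 1.36-fold, with a log2 fold change of 0.44 ± 0.08 (edgeR adjusted p = 0.00119). Without untreated replicate 1 the log2 fold change was 0.36 and still past the threshold.

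Of the small MAF genes, whose products carry a DNA-binding zipper but no activation domain, Mafg rose most. Mafg (ENSMUSG00000051510, chromosome 11, 120625117 to 120633600, minus strand) stood at 161, 165 and 158 CPM untreated and at 224, 227 and 227 CPM with HOCl. The HOCl libraries were all higher, and the 3 values lay close together (SD 1.75 CPM). The rise of 1.38-fold, a log2 fold change of 0.46 ± 0.04, had an edgeR adjusted p of 2.30e-05, which placed it 129 in the order of adjusted p over the 16082 genes. Mafg shares 124 exon bases, 2.21% of its own, with Sirt7 on the same strand, so reads there cannot be assigned with certainty. Sirt7 had up to 9399 counts in a library. Mafk shares 4.33% of its exon bases with Tmem184a on the opposite strand.

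Mafk (ENSMUSG00000018143, chromosome 5, 139791513 to 139802653, plus strand) was at 33.8, 36.1 and 36.0 CPM untreated and at 42.6, 41.2 and 40.7 CPM with HOCl. The ranges did not overlap, and Mafk rose 1.15-fold (log2 fold change 0.21 ± 0.06, edgeR adjusted p = 0.0173), the smallest rise of the 6. Its call ended without HOCl replicate 1 (edgeR adjusted p = 0.0830) or HOCl replicate 2 (edgeR adjusted p = 0.0621). Maff (ENSMUSG00000042622, chromosome 15, 79346621 to 79359076, plus strand) was the rarest regulator, at 6.42, 6.05 and 5.38 CPM untreated and 5.65, 4.72 and 5.03 CPM with HOCl. The groups overlapped, and its log2 fold change of -0.24 had a 95% interval of -0.50 to 0.01 (edgeR adjusted p = 0.150).

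**Figure D2:**
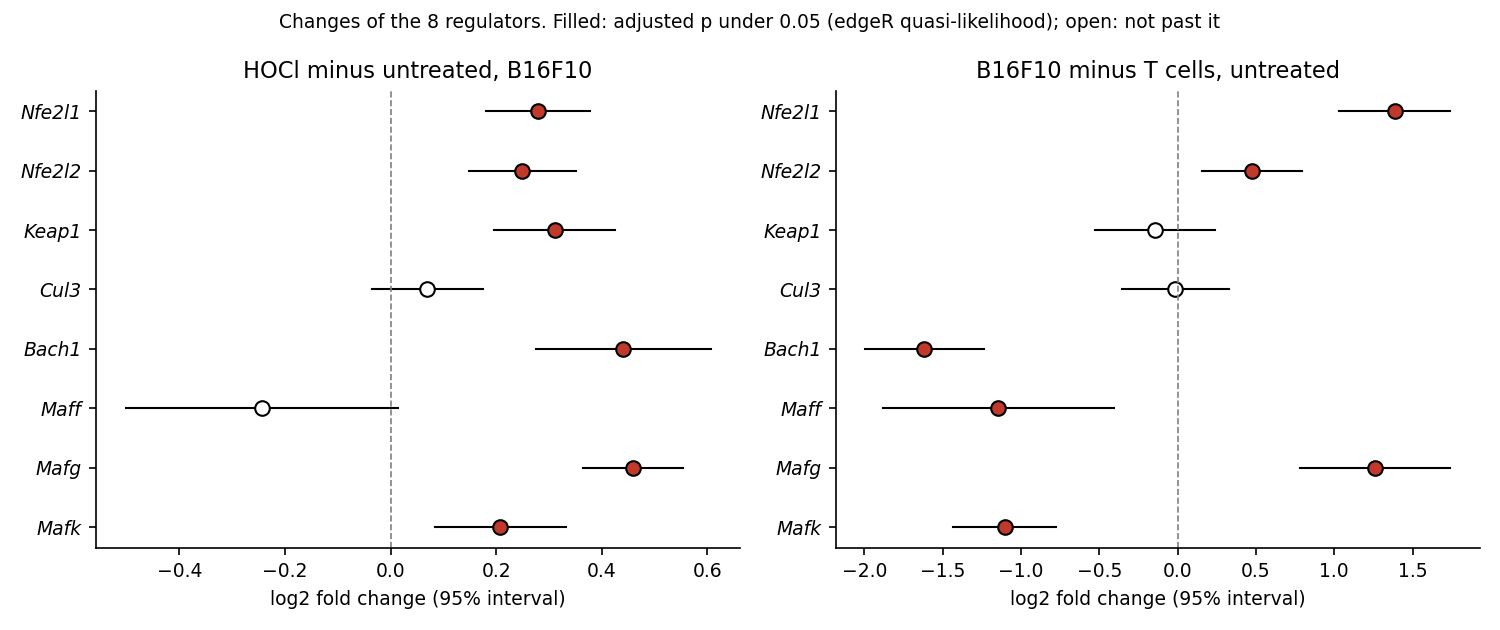
Log2 fold change of each regulator with its 95% interval for HOCl minus untreated in B16F10 (left) and untreated B16F10 minus untreated T cells (right); filled points passed an adjusted p of 0.05. On the left 6 filled points lie between 0.21 and 0.46, with Cul3 and Maff open; on the right the filled points run from -1.62 for Bach1 to 1.39 for Nfe2l1.

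Ranges of CPM that did not overlap were seen for 6 of the 8 regulators, all with HOCl higher, while 43.6% of all genes tested had them and 25.2% had them with HOCl higher. HOCl replicate 3 carried more T cell marker RNA than the other B16F10 libraries, 24.6 CPM summed over 8 markers against 4.42 to 6.02 CPM. Without that library the same 6 regulators passed and none fell.

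Ratios within a library set activator against repressor transcripts. They are of counts not scaled by exon length, which is 3796 bases for Nfe2l2, 4693 for Keap1 and 6179 for Bach1. A ratio above or below 1 thus does not say which transcript is more abundant. Nfe2l2 had 2.45 ± 0.141 counts per Keap1 count (mean ± SD, n = 3) in untreated and 2.34 ± 0.0644 in HOCl libraries. The single values were 2.49, 2.56 and 2.29 against 2.31, 2.42 and 2.30, so the groups overlapped. The difference of -0.06 in log2 ratio had p = 0.4 by a two-sided exact permutation test. Bach1 had 0.325 ± 0.0384 counts per Nfe2l2 count untreated and 0.371 ± 0.0202 with HOCl, with single values of 0.282, 0.340 and 0.354 against 0.362, 0.357 and 0.394. Here every HOCl library was higher, and the two-sided exact permutation p of 0.1 is the smallest that 3 against 3 libraries allow. Without untreated replicate 1 the difference in log2 ratio was 0.09 in place of 0.19.

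**Figure D3:**
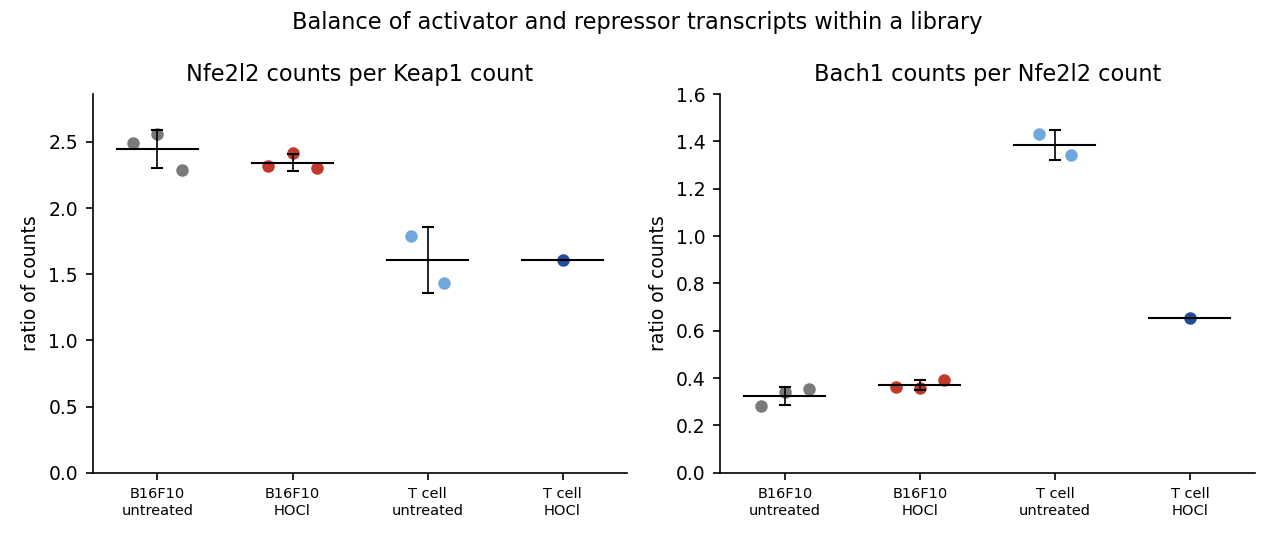
Nfe2l2 counts per Keap1 count (left) and Bach1 counts per Nfe2l2 count (right) in every library, with the mean and SD of each group. Untreated T cells hold 1.34 and 1.43 Bach1 counts per Nfe2l2 count, above all B16F10 libraries (0.282 to 0.394). Per kb of exon, Nfe2l2 stood at 20.1 and 18.2 CPM and Bach1 at 17.7 and 15.0 CPM in untreated T cells.

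Scaled by exon length (CPM per kb of annotated exon), the order of levels in untreated B16F10 was Nfe2l1 (71.4 ± 1.6), Cul3 (34.2 ± 1.56), Nfe2l2 (31.6 ± 0.981), Mafg (28.8 ± 0.617), Keap1 (10.5 ± 0.287), Mafk (9.05 ± 0.325), Bach1 (6.31 ± 0.694) and Maff (2.29 ± 0.203). Between neighbours in that order the ranges over the 3 libraries did not overlap. With HOCl, Mafg stood second at 40.3 ± 0.312 CPM per kb, above Nfe2l2 at 38.3 ± 0.571 and Cul3 at 36.5 ± 0.867. Mafg and Cul3 exchanged places in the order, and the other 6 kept theirs. These lengths count every annotated exon, so a gene that uses a short isoform is set too low.

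Among the 3 small MAF genes, Mafg held 71.7 ± 0.330% of the summed CPM per kb in untreated B16F10 and 76.2 ± 0.754% with HOCl (n = 3 each). The shares were 72.0, 71.8 and 71.4% against 75.3, 76.6 and 76.6%, with no overlap. The two-sided exact permutation p was 0.1, the smallest possible. Mafk held 22.6 ± 0.806% and then 20.1 ± 0.446%, and Maff 5.72 ± 0.478% and then 3.74 ± 0.340%.

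**Figure D4:**
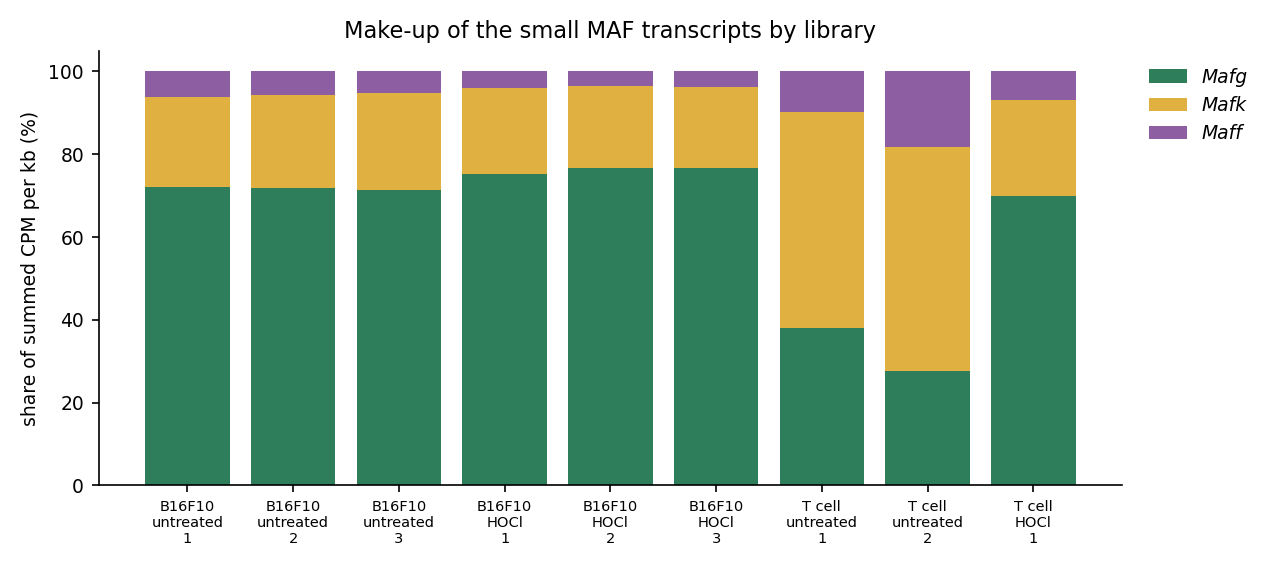
Share of Mafg, Mafk and Maff in their summed CPM per kb of exon, 1 bar per library. Mafg makes up 71.4 to 76.6% in B16F10 libraries, and Mafk 52.3 and 54.1% in untreated T cell libraries.

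Promoter windows from RefSeq (GRCm38.p6, 250 bases before to 50 after each listed start) were found for all 8 genes, 14 windows in all, of which those of Nfe2l1 and of Maff are several and some overlap. The core of the antioxidant response element, TGACNNNGC, was searched on both strands, as the binding sequence of NRF2 and BACH1 with small MAFs. It was present in 4 of the 14 windows, 1 each of Nfe2l2, Maff, Mafg and Mafk, and in 12.4% of all 32851 promoter windows of that length. Nfe2l1 has 5 windows and Maff 3, and a share per gene over all genes was not computed. The AP-1 letters TGANTCA (7.81% of windows) and the long MAF recognition element, which is TGC followed by those letters (0.423% of windows), were in none of the 14. The core can share bases with either. The 4 windows with a match are shown because they include 3 genes that rose and 1, Maff, that did not. Capitals mark the core, which for Mafg and Mafk lies on the opposite strand and so is printed as its reverse complement. The windows are Nfe2l2 chr2:75704614-75704913 (minus strand), Maff chr15:79346371-79346670 (plus strand), Mafg chr11:120633498-120633797 (minus strand) and Mafk chr5:139791286-139791585 (plus strand).
Nfe2l2: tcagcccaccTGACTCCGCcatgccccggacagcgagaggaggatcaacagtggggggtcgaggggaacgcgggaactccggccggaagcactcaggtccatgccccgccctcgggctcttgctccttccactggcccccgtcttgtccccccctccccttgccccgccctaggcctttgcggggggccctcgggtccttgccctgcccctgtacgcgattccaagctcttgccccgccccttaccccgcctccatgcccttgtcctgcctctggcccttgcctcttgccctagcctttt
Mafg: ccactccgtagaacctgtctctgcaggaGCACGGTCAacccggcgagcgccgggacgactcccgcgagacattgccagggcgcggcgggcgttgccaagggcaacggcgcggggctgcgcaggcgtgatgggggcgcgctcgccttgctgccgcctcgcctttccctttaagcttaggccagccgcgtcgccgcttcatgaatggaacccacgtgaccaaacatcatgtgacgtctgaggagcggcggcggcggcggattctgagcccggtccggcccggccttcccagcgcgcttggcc
Mafk: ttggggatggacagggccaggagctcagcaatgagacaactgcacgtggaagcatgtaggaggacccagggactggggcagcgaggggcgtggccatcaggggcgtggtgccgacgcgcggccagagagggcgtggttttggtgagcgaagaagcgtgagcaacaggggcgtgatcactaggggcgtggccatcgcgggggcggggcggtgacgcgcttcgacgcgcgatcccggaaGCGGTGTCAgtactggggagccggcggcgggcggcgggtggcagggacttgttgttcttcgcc
Maff: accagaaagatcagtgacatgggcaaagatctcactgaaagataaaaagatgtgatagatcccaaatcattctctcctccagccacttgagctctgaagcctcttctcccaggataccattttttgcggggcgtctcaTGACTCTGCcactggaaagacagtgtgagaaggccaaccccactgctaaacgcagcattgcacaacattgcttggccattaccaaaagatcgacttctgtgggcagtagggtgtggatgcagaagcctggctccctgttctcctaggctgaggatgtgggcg
The match begins 240 bases before the start of Nfe2l2, 222 before that of Mafg, 13 before that of Mafk and 112 before the first listed start of Maff. Keap1, Bach1 and Nfe2l1 rose without these letters in their windows. The match is a description of letters, and binding was not measured.

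Some known target genes of NRF2 and BACH1 reached larger fold changes than the regulators. Others did not pass: 6 had log2 fold changes from -0.13 to 0.11. The targets and the lists below were chosen with earlier results of these data known, so their counts are no test against all genes. Of 25 listed targets tested, 18 rose and 1, Tkt, fell, with a median log2 fold change of 0.34, where 14.7% of all genes tested were higher and 13.5% lower; with library totals, or without untreated replicate 3 or any 1 HOCl library, Tkt did not pass (edgeR adjusted p 0.0501 to 0.126). Hmox1, heme oxygenase 1 and a classic BACH1 target, was at 118, 112 and 117 CPM untreated and at 455, 436 and 408 CPM with HOCl. That is a log2 fold change of 1.88 ± 0.05 (edgeR adjusted p = 1.48e-09), against at most 0.46 among the regulators. Slc7a11, the cystine importer, had 1.41 ± 0.10 (edgeR adjusted p = 1.29e-05). With all 9 libraries in 1 fit 3 targets were higher, Slc7a11 among them, and Hmox1 was not (edgeR adjusted p = 0.167). Against a 1.5-fold change 5 were higher. In the other 12 alternative settings the count of higher targets was 14 to 21. Of the genes named from the lists around the regulators, Slc7a11 was the only one to pass in that 9-library fit.

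In 3 lists of genes that act on the NRF2 protein, the counts stand beside 14.7% of all genes tested that passed as higher and 13.5% as lower. Among 7 genes listed under KEAP1-binding proteins, 1 rose and 1 fell, and direct binding to KEAP1 was not measured for any of them. The riser was Sqstm1, whose product p62 draws KEAP1 into autophagy, from 1318 ± 67.3 to 1859 ± 65.8 CPM (log2 fold change 0.47 ± 0.05, edgeR adjusted p = 6.52e-05). Trim21, a ubiquitin ligase gene, fell by 0.26 on the log2 scale, a call that ended without HOCl replicate 2 or 3 (edgeR adjusted p = 0.0959 and 0.0530). Of 8 genes for the ring subunit and NEDD8 cycle of cullin ligases, Uba3, a subunit of the NEDD8-activating enzyme, rose (0.18 ± 0.05), and Nedd8 (-0.24 ± 0.07) and Rbx1 (-0.20 ± 0.07) fell. Uba3 did not pass without HOCl replicate 2 (edgeR adjusted p = 0.0738), and Nedd8 and Rbx1 did not pass without any 1 of the HOCl libraries (edgeR adjusted p 0.0580 to 0.176), nor did Rbx1 with library totals (edgeR adjusted p = 0.0790). Of 7 genes of KEAP1-independent turnover, the SCF scaffold gene Cul1 (0.17 ± 0.05) and the F-box gene Fbxw11 (0.15 ± 0.05) rose, and neither passed without any 1 HOCl library (edgeR adjusted p 0.0712 to 0.150), nor did Fbxw11 with no filter on low counts or without untreated replicate 2 (edgeR adjusted p = 0.0752 and 0.0743).

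For NRF1, which is cut free by the protease DDI2 and stripped of sugars by NGLY1, 2 of 8 processing genes rose, where 14.7% of all genes tested did. That count was 4 with a replicate block, 1 with no filter on low counts or without untreated replicate 3 or any 1 HOCl library, and 0 with all 9 libraries in 1 fit or against a 1.5-fold change. Ddi2 went from 73.1 ± 7.25 to 92.5 ± 5.22 CPM (log2 fold change 0.31 ± 0.07, edgeR adjusted p = 0.00628). Ngly1 had 0.20 ± 0.06 and lost its call with no filter on low counts or without any 1 library other than untreated replicate 1 (edgeR adjusted p 0.0503 to 0.165). Proteasome subunit genes, the known NRF1 targets, had 0 higher and 7 lower of 31 by edgeR (1 of the 31, Psmd11, had the highest log2 fold change at 0.08), with a median log2 fold change of -0.13. Over all genes tested, 14.7% were higher and 13.5% lower. Psma5 had -0.30 ± 0.06 and Psmd13 -0.26 ± 0.07, the latter not past the threshold without HOCl replicate 2 or 3 (edgeR adjusted p = 0.0588 and 0.0675). The count of lower subunits was 4 without HOCl replicate 1, 2 without replicate 2 and 1 without replicate 3, 12 with no filter on low counts and 13 with a replicate block. Without untreated replicate 1, 1 subunit gene passed as higher.

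Of 4 genes listed under BACH1 turnover, 3 rose, where 14.7% of all genes tested did. Action on BACH1 protein was not measured for any of them. Hmox1, whose product breaks down heme, is also counted among the targets above, so its rise enters both counts. The deubiquitinase gene Usp47 rose too (log2 fold change 0.26 ± 0.06, not past the threshold without HOCl replicate 3, edgeR adjusted p = 0.0529). The last riser, named after its values were seen, was the F-box gene Fbxo22 (0.21 ± 0.05). Of 7 relatives of the regulators, 4 passed the filter on low counts and 1, Mafa, rose from 1.91 ± 0.228 to 2.98 ± 0.449 CPM. Mafa's call ended without untreated replicate 2 or 3 or HOCl replicate 2 or 3 (edgeR adjusted p 0.0539 to 0.133). Bach2, the lymphoid sister of Bach1, was at 4.66 ± 0.496 and 6.11 ± 0.939 CPM (edgeR adjusted p = 0.0661).

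**Figure D5:**
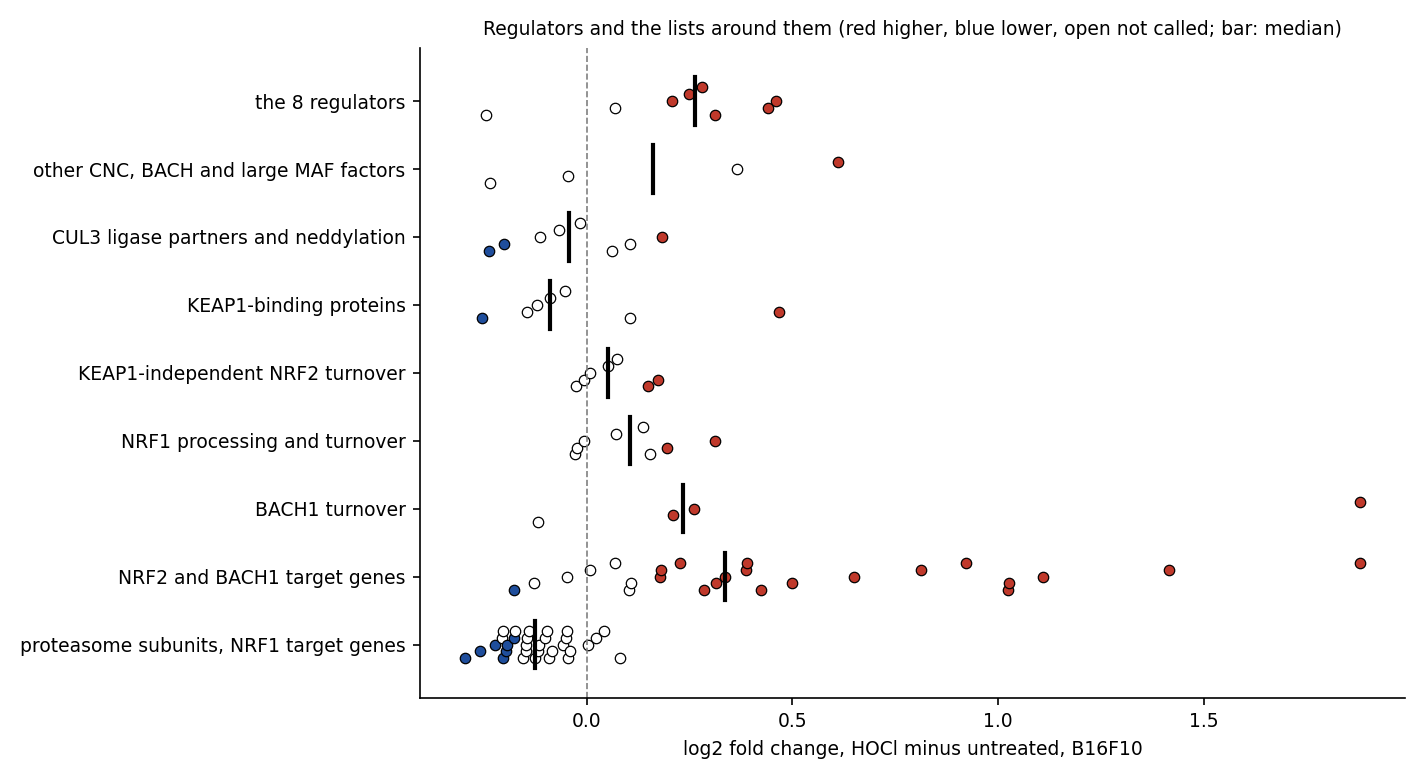
Log2 fold change for HOCl minus untreated in B16F10 of the 8 regulators and of the 8 lists around them; red points passed as higher, blue as lower, open points did not pass, and bars are medians. The target genes reach 1.88, the regulators stay at or under 0.46, and the proteasome median lies at -0.13.

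Untreated T cell libraries differed more from each other (chi-square per degree of freedom 393) than B16F10 libraries within a group did (3.73 to 23.2). Between untreated cell types the regulators differed in both directions. Of the 8, 3 were higher and 3 lower in B16F10 than in T cells, among 18352 genes tested of which 71.1% passed (35.8% higher and 35.4% lower), so this count stands near the background. CPM ranges did not overlap for 7 of the 8 (81.8% of all genes tested), 4 with B16F10 higher (46% of all genes) and 3 with B16F10 lower (35.8%); Keap1 overlapped, and Cul3, though separate, was not called. Nfe2l1 was at 388 ± 8.71 CPM (n = 3) in B16F10 and at 133 and 118 CPM in the T cell libraries, a log2 fold change of 1.39 ± 0.15 (edgeR adjusted p = 0.000369). Mafg was higher in B16F10 as well, with 70.2 and 44.6 CPM in T cells and a log2 fold change of 1.26 ± 0.19 (edgeR adjusted p = 0.00195). Nfe2l2 stood at 76.3 and 69.2 CPM in T cells (0.48 ± 0.13, edgeR adjusted p = 0.0172), a call that ended without any 1 B16F10 library, with the stricter filter or with a replicate block (edgeR adjusted p 0.0794 to 0.267).

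Bach1, Mafk and Maff RNA was higher in T cells. Bach1 was at 109 and 92.8 CPM there against 39.0 ± 4.29 CPM in B16F10 (log2 fold change -1.62 ± 0.15, edgeR adjusted p = 0.000247). Mafk, at 67.3 and 60.7 CPM, was higher in T cells too (-1.10 ± 0.13, edgeR adjusted p = 0.000668). Maff had 8.33 and 13.6 CPM in T cells (-1.14 ± 0.30, edgeR adjusted p = 0.0155), lost without any 1 B16F10 library or with a replicate block (edgeR adjusted p 0.0520 to 0.162), and its log2 fold change was -0.62 without T cell replicate 2. Within the small MAF genes, Mafk held 52.3 and 54.1% of the summed CPM per kb in untreated T cells, and Mafg 37.9 and 27.7%.

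Keap1 and Cul3 did not differ past the threshold between untreated B16F10 and T cells. Keap1 stood at 42.7 and 48.2 CPM in T cells against 49.1 ± 1.35 CPM in B16F10, and its log2 fold change of -0.14 (95% interval -0.53 to 0.24) turned to 0.11 with library totals in place of TMM scaling. Without T cell replicate 1 Keap1 passed as lower in B16F10 (log2 fold change -0.27, edgeR adjusted p = 0.0323), and without replicate 2 its value was 0.065. Cul3 stood at 157 and 127 CPM against 166 ± 7.62 CPM, and its -0.01 (interval -0.36 to 0.33) turned to 0.23 with library totals. That scaling moved the median of all genes from -0.02 to 0.22. Relative to exon length the order in T cells began with Cul3 (32.3 and 26.1 CPM per kb), Nfe2l1 (24.4 and 21.7) and Nfe2l2 (20.1 and 18.2), followed by Mafk and Bach1, whose ranges overlapped, Mafg and Keap1, whose ranges overlapped, and Maff. Among the relatives, Bach2 was at 315 and 210 CPM in T cells against 4.66 ± 0.496 CPM in B16F10 (log2 fold change -6.05 ± 0.22, edgeR adjusted p = 1.14e-05), and Maf at 3.70 and 4.28 against 51.5 ± 3.32 CPM (3.43 ± 0.21, edgeR adjusted p = 4.09e-05).

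In the library labelled T cell HOCl, Nfe2l1 stood at 146 CPM, above both untreated T cell libraries, and Mafg at 68.8 CPM, between them. Nfe2l2 was at 45.5, Keap1 at 28.3, Cul3 at 75.6, Bach1 at 29.7, Maff at 3.19 and Mafk at 15.9 CPM, each below both. Of all 18352 genes tested between the cell types, 35.4% were below both there and 51.9% above both. With CPM taken over counts outside mitochondrial genes, a scale chosen after seeing the data, Nfe2l1 was at 233 (untreated 135 and 121) and Mafg at 110.0 (71.3 and 45.6), both above the untreated values. On that scale Nfe2l2 and Keap1 lay between them, and Cul3, Bach1, Maff and Mafk below. Of the 18334 genes tested outside mitochondrial ones, 64.4% were above both untreated values on that scale and 22.5% below both. Mafg held 69.8% of its small MAF total, below every B16F10 library (71.4 to 76.6%) and above both untreated T cell libraries. The library had 0.654 Bach1 counts per Nfe2l2 count, between the values of untreated T cells and of B16F10. With the melanocyte markers and mitochondrial share of that library given above, their part in these values was not tested, and none of them was tested against untreated T cells.

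The genes whose pattern over the 6 B16F10 libraries came nearest to 7 of the regulators were found by the root mean square difference of log2 CPM, each centred on its own mean, among 9372 genes of at least 10 CPM. All these values share the same libraries. Nearest to Nfe2l1 were Wdr91 (0.012) and Cds2 (0.015), and nearest to Nfe2l2 Pqlc2 (0.019) and Prpf18 (0.020). Keap1 was nearest to Bahd1 (0.015) and Rap2a (0.017), Bach1 to Jmy (0.022) and Rrm2b (0.022), and Cul3 to Azin1 (0.010) and Usp15 (0.012). Mafg was nearest to Cln8 (0.021) and Zfp626 (0.026), and Mafk to Nploc4 (0.016) and Faf2 (0.017). Among the regulators, Nfe2l1 and Keap1 were the closest pair, at 0.034.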

How the data were processed

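The deposited values were the authors' raw counts of reads per gene. The submitters' processing notes name FastQC 0.11.8, STAR 2.7.1a, featureCounts 1.6.0, DESeq2 1.22.2 and mm10. For strand setting, annotation release and filters, what was used is not given in the sources used here, so reads of antisense and overlapping genes cannot be told apart. The authors' deposited table for B16F10 (log2 fold change and adjusted p-value) gave symbols, joined by gene ID, and calls to set beside those here; its groups are not named by treatment, so its signs were taken as deposited. Coordinates and exon lengths are GENCODE M21 (GRCm38).

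Tests used edgeR 4.0.16 in R 4.3.3 on all genes kept by filterByExpr: TMM scaling, robust quasi-likelihood F test, Benjamini-Hochberg adjustment over all genes tested, threshold 0.05, with only the groups compared in the fit. SE is the log2 fold change over the square root of F. The procedure was tested on simulated data. CPM are scaled to a library's own gene counts. Counting error was not small for the rarest regulator, Maff. In the library labelled T cell HOCl it had 41 counts (3.19 CPM, 95% Wilson interval 2.35 to 4.33). In B16F10 untreated replicate 3 the interval was 4.75 to 6.10 around 5.38 CPM. Ratios were tested by exact permutation in scipy 1.17.1. DESeq2 1.42.0 was an alternative. Named genes were the 8 regulators, up to 2 per direction with the largest change from each list, and 2 nearest patterns per regulator; those of Maff are not reported here. Members and lists were chosen with earlier results of these data known.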

Additional observations from a re-analysis of the deposited data

Results flagged for a closer look

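Of the regulators that were higher in every B16F10 HOCl library, 4 were lower in the library labelled T cell HOCl than in both untreated T cell libraries. Nfe2l2 stood at 45.5 CPM there (untreated 76.3 and 69.2), Keap1 at 28.3 CPM (42.7 and 48.2), Bach1 at 29.7 CPM (109 and 92.8) and Mafk at 15.9 CPM (67.3 and 60.7). Of all genes tested between the cell types, 35.4% were below both untreated values in that library. Whether the response to HOCl differed between the cell types was not tested, and 1 library gives no spread. That library also held 6712 CPM of summed melanocyte markers, against 101 and 25.6 CPM in untreated T cells. Its T cell markers summed to 526 CPM, against 2700 and 2610 CPM. The part of this mixed content in the values above was not tested. With CPM taken over counts outside mitochondrial genes, a scale chosen after seeing the data, that library had 72.6 for Nfe2l2 (untreated 77.5 and 70.6) and 45.3 for Keap1 (43.4 and 49.3), both between the untreated values. On that scale Bach1 was at 47.5 (110.9 and 94.8) and Mafk at 25.4 (68.4 and 62.0), still below both, as were 22.5% of the genes tested outside mitochondrial ones.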

How the results depend on the processing

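In B16F10, 6 regulators were higher and 0 lower with DESeq2's size factors, library totals, no filter, the stricter filter, DESeq2 and a replicate block, and 5 to 6 were higher without any 1 library. With all 9 libraries in 1 fit 0 were higher, with 11 genes higher and 26 lower in all, and against a 1.5-fold change 0 were higher, with 28 genes higher and 45 lower; that test asks for a larger change by construction, and for the 9-library fit the cause was not tested. Genes lower numbered 1410 to 2634 and genes higher 1605 to 2819 without any 1 library (lower: 1432 without HOCl replicate 2, 1410 without replicate 3). The replicate block gave 2726 higher and 2567 lower genes in B16F10 and, between cell types, 2 regulators higher and 2 lower; deviations of same-numbered B16F10 libraries had correlations of -0.0035 to 0.035, so the numbers did not pair them. Between cell types, Keap1 turned to 0.11 and Cul3 to 0.23 with library totals, and Cul3 to 0.10 with no filter and 0.033 with all 9 libraries. Without any 1 library Cul3 was -0.10 to 0.10 and Keap1 -0.27 to 0.065, Keap1 passing without T cell replicate 1 (edgeR adjusted p = 0.0323), where the lone T cell library is assumed to vary like B16F10. The rise in Mafg's share was 4.44 percentage points, 3.26 with no length scaling and 3.34 per coding length, and 4.22 to 4.88 without any 1 library.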

Other observations

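Target genes, listed with earlier results of these data known, also differed between the untreated cell types. Of the 25 listed NRF2 and BACH1 targets, 22 were higher in B16F10 than in T cells and 0 lower by edgeR (median log2 fold change 2.20), where 35.8% of all genes tested were higher. Hmox1 stood at 2.18 and 8.01 CPM in untreated T cells against 115 ± 3.34 CPM in B16F10. Of 31 proteasome subunit genes, 21 were higher in B16F10 and 0 lower (median 0.85). Nqo1, the quinone reductase gene often read as an NRF2 marker, was low in B16F10, at 1.32 ± 0.237 CPM untreated and 2.76 ± 0.201 CPM with HOCl (log2 fold change 1.03 ± 0.20, edgeR adjusted p = 0.00235), and was named after its values were seen.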
